A study of Homo sapiens with 3 samples.

Results

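The genes HDGF, YBX1, NSUN2, ALYREF and ELAVL1 belong to a pathway in which 5-methylcytosine (m5C), a modified base of RNA, is written into mRNA, read and linked to the fate of the transcript. They were examined in a list of YBX1 peaks, regions that the authors called enriched in RNA captured with this protein. The members are the peaks of this list that overlap by 1 base or more the hg19 span of one of these 5 genes, and a gene with no such peak was recorded as well. The rule uses the positions of peaks, which are the only values in the list. Genes and rule were chosen with earlier results of these data known. Shares set beside a background below are therefore a description and not independent support. The rule found 6 of the 17802 peaks, over 3 of the 5 genes. The share of all genes that hold a peak was not computed, so this count has no background among genes.

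Peaks lay over HDGF (2), YBX1 (3) and NSUN2 (1). No peak overlapped ALYREF or ELAVL1. The HDGF peaks stood together at the 3′ end of the gene, the NSUN2 peak stood near the 5′ end, and the YBX1 peaks included one at the 5′ end and one near the 3′ end.

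The RNA came from T24, an established human bladder carcinoma cell line, made to overexpress Flag-tagged YBX1. The labels give 3 groups with 1 library each: input RNA set aside from the lysate, RNA captured with YBX1 on anti-Flag beads (RNA immunoprecipitation, RIP), and YBX1 RIP RNA treated with bisulfite, which converts unmethylated cytosines so that m5C can be read. The bead-bound RNA was trimmed with micrococcal nuclease and depleted of ribosomal RNA before sequencing. Overexpression is shared by all groups as far as the labels say, and no library came from a mock capture in untagged cells. The labels disagree on the line of the bisulfite-treated library, and T24, given under its characteristics, was followed. The peak list carries no expression values, so the identity of the cells could not be checked against marker genes.

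As background, NSUN2 is a methyltransferase that places m5C in tRNAs and mRNAs. ALYREF, an mRNA export adaptor, and YBX1, a cold-shock-domain protein abundant in cytoplasmic mRNA particles, are known as readers of the mark. ELAVL1, also called HuR, binds AU-rich elements, mostly in 3′ untranslated regions, and stabilises the mRNAs that carry them, and it has been described as a partner of YBX1. HDGF encodes a heparin-binding growth factor, and its mRNA has been described in bladder cancer as an m5C-bearing target that YBX1 protects from decay. A peak here marks a region where the authors called captured RNA enriched. It says nothing of the methylation of that region, because the list holds no methylation calls.

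Each peak has only a chromosome, a start and an end. Coordinates are those of the list, on hg19, and widths were taken as the difference between end and start. Exons were not assigned, so distances and peak-free stretches below run along the gene, introns included, and not along the mature RNA. No height, fold, strand or read count is given, so the depth behind each peak is unknown. With 1 list and no replicates, no spread between cultures and no test can be given, and the values below are a description of that list.

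HDGF, the growth factor gene, spans 10.3 kb of chromosome 1 (156711899 to 156722240) and is transcribed towards lower coordinates. Its first peak by position ran from 156711868 to 156712315, a width of 447 bp. It crossed the 3′ end of the span, with 417 bp inside the gene and 30 bp beyond it. The other ran from 156712418 to 156713202 and was 784 bp wide, the widest of the 6 peaks. A gap of 103 bp separated them, and 1.00% of all 17777 gaps between neighbouring peaks of the list were as short or shorter. The closest pair anywhere in the list was 81 bp apart. Together the pair and the gap between them took up the last 1304 bases of the gene, or 12.6% of its length. From the 5′ end, the first 9038 bases held no peak.

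Peaks covered 11.6% of the HDGF span, against 0.459% of chromosome 1 between its first and last peak. This was the highest share of the 5 genes for the spans used, but with each span narrowed by 1 kb at both ends HDGF had 3.64% and YBX1 5.46%, so the order depends on where a gene is taken to end. For comparison, chromosome 1 was divided into consecutive windows of the gene's length. Of these, 4.33% held at least 1 peak and 1.66% held 2 or more. The windows and the share of the chromosome take in all sequence, transcribed or not. They are therefore a background for the chromosome and not for expressed genes. Coverage of a gene is over its whole span, introns included, so it is not coverage of the mature RNA. In the RefSeq table (GRCh38.p14), the annotated ends of HDGF and MRPL24, a mitochondrial ribosomal protein gene transcribed in the same direction, overlap at the 3′ end of HDGF. Whether the peak that crosses the end of the span lies in this shared stretch was not determined, and its RNA cannot be told apart between the 2 genes. The table also gives HDGF a longer span, 25.3 kb, than the one used here, over which the covered share was not computed. The nearest peak upstream of the span was 15.2 kb away.

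YBX1, which encodes the captured protein itself, spans 20.0 kb of chromosome 1 (43148049 to 43168020) and is transcribed towards higher coordinates. It had the most peaks of the 5 genes in the full list, whereas among peaks of at least 500 bp YBX1, HDGF and NSUN2 had 1 each. The first, from 43148029 to 43148484 (455 bp), began 19 bases before the span and reached 435 bases into it. The second, from 43162245 to 43162776 (531 bp), was centred at 72.4% of the length of the gene. The third, from 43166346 to 43166797 (451 bp), was centred at 92.7% and ended 1223 bases before the 3′ end. Thus the peaks lay at the start and towards the 3′ end of the gene, with 13.8 kb free of peaks between the first and the second and 3.57 kb between the second and the third.

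Peaks covered 7.10% of the YBX1 span. The RefSeq table (GRCh38.p14) gives YBX1 a longer span, 21.4 kb, than the one used here. Coverage and peak positions were not computed over it. Windows of the same length on chromosome 1 held at least 1 peak in 6.47% of cases and 3 or more in 1.82%. Like those for HDGF, these windows take in all sequence, transcribed or not. The cells overexpressed Flag-tagged YBX1, so RNA from the introduced copy and from the cell's own gene cannot be told apart in peaks over the coding exons. The RefSeq table also names 10 pseudogenes of YBX1 (YBX1P1 to YBX1P10), against 1 of HDGF (HDGFP1) and none named after NSUN2, ALYREF or ELAVL1. How reads that match several copies were assigned is a step not given in the sources used here, so the YBX1 peaks are uncertain in this respect.

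NSUN2, the methyltransferase gene, spans 34.1 kb of chromosome 5 (6599352 to 6633404) and is transcribed towards lower coordinates. Its single peak ran from 6632604 to 6633205, with a width of 601 bp. It lay wholly inside the gene, from 199 to 799 bases after the 5′ end. The remaining 33.3 kb, up to the 3′ end, held no peak. Coverage of the span was 1.76%, against 0.217% of chromosome 5, and 4.97% of windows of the same length on that chromosome held at least 1 peak. Both backgrounds take in all sequence, transcribed or not. The coverage rests on this single peak and was 0% with the span narrowed by 1 kb at both ends. NSUN2 and HDGF thus had their peaks at opposite ends, while YBX1 had peaks towards both. SRD5A1, a steroid reductase gene, is the next gene beyond the 5′ end of NSUN2 in the RefSeq table. The 2 annotated genes do not overlap there.

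**Figure D1:**
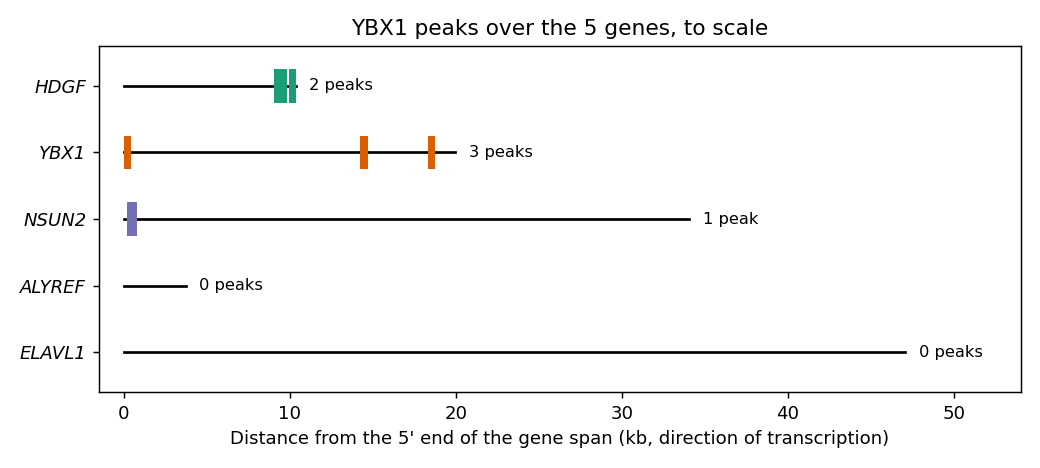
Each line is the hg19 span of 1 gene drawn from its 5′ end at 0, in kb along the direction of transcription, and each coloured block is 1 YBX1 peak at its true width. The 2 HDGF peaks sit at the 3′ end, the NSUN2 peak at the 5′ end, the 3 YBX1 peaks at the start and towards the 3′ end, and ALYREF and ELAVL1 have none.

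ALYREF, the export adaptor gene and the shortest of the 5, spans 3.75 kb of chromosome 17 (79845711 to 79849462) and is transcribed towards lower coordinates. No peak overlapped it. The nearest, from 79844952 to 79845479 (527 bp), lay only 231 bases past its 3′ end. It was the one peak just outside the rule, whereas the NSUN2 peak lay 199 bases inside a span end and the outermost peaks of HDGF and YBX1 crossed theirs. On the other side, the next peak was 9.48 kb beyond the 5′ end. The surroundings of ALYREF were rich in peaks, with 6 within 10 kb of the gene and 13 within 100 kb. Only 5.47% of windows of its length on chromosome 17 held a peak, so most stretches of this size there had none. These windows take in all sequence, transcribed or not. They do not show whether a gene without a peak is usual. The gap between peaks that held ALYREF measured 13.5 kb, and 28.3% of the gaps on chromosome 17 and 33.2% of those in the whole list were at least as long. In the RefSeq table ANAPC11, which encodes a subunit of the anaphase-promoting complex and is transcribed in the opposite direction, overlaps the 5′ end of ALYREF.

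ELAVL1, the gene of HuR and the longest of the 5, spans 47.1 kb of chromosome 19 (8023458 to 8070529) and is transcribed towards lower coordinates. None of its bases lay under a peak. Of windows of this length on chromosome 19, 24.8% held at least 1 peak, so most stretches of this size there had none. The windows take in all sequence, transcribed or not, and give no share for expressed genes. The nearest peaks were 44.6 kb past the 3′ end (7977886 to 7978865, 979 bp wide) and 398 kb beyond the 5′ end (8468376 to 8469035, 659 bp wide). ELAVL1 thus stood in a stretch of 490 kb without a peak, and 2.51% of the 997 gaps on chromosome 19 were as long or longer, as were 6.44% of the gaps in the whole list. Here and for ALYREF, such shares count gaps and not bases. Long gaps take up more of a chromosome than short ones, so the shares do not give how often a gene lies in such a gap. The median gap on chromosome 19 was 4514 bp. ALYREF and ELAVL1 therefore both lacked a peak, but ALYREF lay beside a group of peaks and ELAVL1 44.6 kb from the nearest. Since the depth is unknown, a missing peak cannot be told apart from RNA that was bound but scarce.

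The widths of the 6 peaks ranged from 447 to 784 bp, with a median of 493 bp, beside a median of 470 bp over the whole list (quartiles 424 and 631 bp). Of the 6, 3 (both outer YBX1 peaks and the outermost HDGF peak) were narrower than the list's median. The peak in the second place of YBX1 was wider than 65.3% of the list, the NSUN2 peak wider than 72.9% and the inner HDGF peak wider than 83.4%. Only the last of these exceeded the upper quartile. None of the 6 was 1000 bp wide or more, a width that 9.80% of the list reached. The peaks over these genes thus had ordinary widths for the list, apart from the inner HDGF peak, which was towards the wide side.

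**Figure D2:**
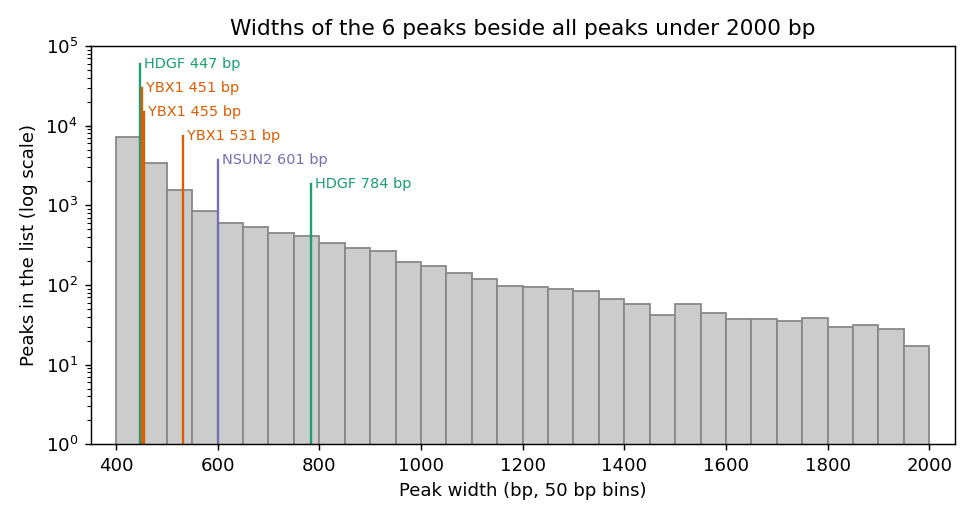
Grey bars count the peaks of the whole list by width in bins of 50 bp, up to 2000 bp, on a log scale; the 422 peaks of 2000 bp or more are not drawn. Coloured lines mark the 6 peaks over HDGF, YBX1 and NSUN2, which lie between 447 and 784 bp, and their heights serve only to separate the labels.

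The 3 genes with peaks differed in how isolated those peaks were. The YBX1 peaks had no other peak within 100 kb of the gene. The next one was 491 kb away on the 5′ side and 417 kb on the 3′ side of the span, and 6.41% and 7.16% of all gaps in the list were as long as these when measured from peak to peak. The NSUN2 peak was 80.3 kb from the next peak on the 5′ side and 1167 kb from the next on the 3′ side, and 16.4% and 3.45% of gaps in the list were as long as these. Only 4 other peaks lay within 1 Mb of NSUN2. Around HDGF, 8 other peaks lay within 100 kb and 93 within 1 Mb, none of them within 10 kb. From peak to peak, the gaps beside the HDGF pair measured 24.2 kb on the 5′ side and 81.3 kb on the 3′ side, and 26.4% and 16.3% of gaps in the list were as long. On its 5′ side NSUN2 was thus no more isolated than HDGF on its 3′ side. In contrast to the clustered peaks near ALYREF, the peaks over YBX1 and NSUN2 had no other peak within 10 kb of the gene and at most 1 within 100 kb.

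**Figure D3:**
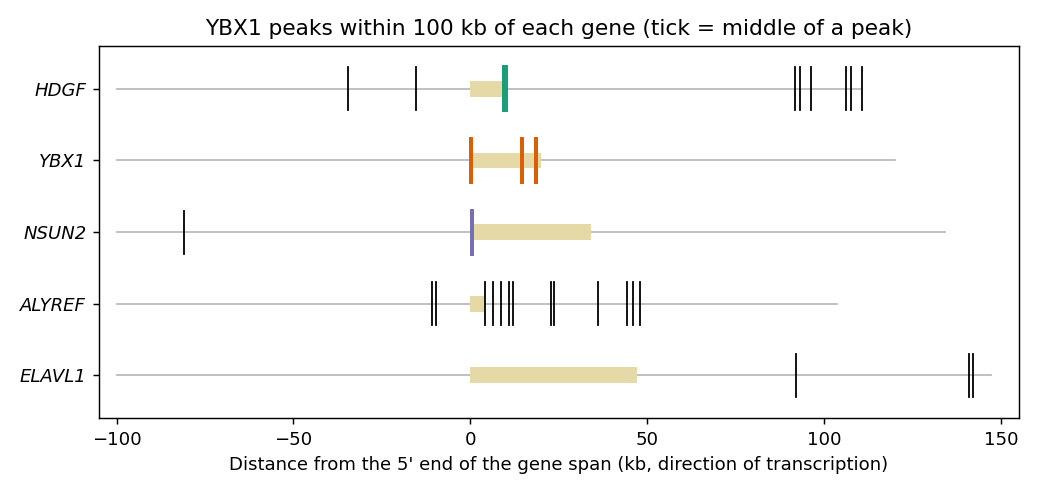
Each row shows the 100 kb on both sides of 1 gene, in kb from its 5′ end along the direction of transcription, with the gene as a pale bar, its own peaks as thick coloured ticks and other peaks as thin black ticks. YBX1 has no other peak in view, NSUN2 has 1, ELAVL1 has 3, HDGF has 8 and ALYREF has 13, the nearest of which is 231 bases past its 3′ end.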

How the data were processed

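Genome positions of YBX1 peaks (chromosome, start and end) are the only deposited values analysed, per the file headers. Trimmomatic, MACS2 and build hg19 are named in the submitters' processing notes, with no version or setting. Which aligner, which peak threshold and which libraries were used for peak calling is not given in these sources. The hg19 gene spans came with the rule for choosing peaks. Members and rule were chosen with earlier results of these data known. All 5 genes are described, and further m5C genes fixed as a list have no values, since no hg19 annotation was used here. For the same reason no exon was assigned and no sequence under a peak is shown. Peaks were read as 0-based intervals and spans as 1-based. Directions of transcription came from the RefSeq promoter table for HDGF, YBX1, ALYREF, MRPL24 and ANAPC11, and from general knowledge for NSUN2 and ELAVL1. Neighbouring genes, pseudogenes and annotated lengths came from RefSeq on GRCh38.p14, by name and order only. Background windows ran from the first to the last peak of a chromosome. Overlap counting was tested on simulated data. Python 3.11.15, numpy 2.4.6 and pandas 2.3.3 were used.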

Additional observations from a re-analysis of the deposited data

How the results depend on the processing

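Of 51 values recomputed with other spans, overlaps, peak widths or coordinate conventions, 38 were equal to those reported or within a set tolerance. Some of the 38 could not have changed. A gene without a peak cannot gain one from a narrowed span, a stricter overlap or a width limit. The tally is therefore not a measure of stability. For counts and the median width this was a ratio of at most 1.5, which lets 3 become 2 or 4, and for coverage it was the 95% Wilson interval over the bases of the span. That interval treats bases as independent, which bases under the same peak are not. It served only as a tolerance and does not measure the uncertainty of coverage. Narrowing each span by 1 kb on both sides left 3 peaks over the genes, because peaks at the span ends were lost. The genes with a peak were then 2, and YBX1 had 2 peaks. NSUN2 then had 0 peaks and 0% coverage, HDGF had 1 peak and 3.64% coverage, and coverage of YBX1 was 5.46%. Widening by 1 kb brought in the peak past ALYREF, giving it 1 peak and 9.16% coverage. The genes with a peak were then 4, and coverage was 9.97% for HDGF and 6.54% for YBX1, over longer spans. With narrower peaks than 500 bp removed, 3 peaks were left, 1 each over HDGF, YBX1 and NSUN2. Requiring 50% of a peak inside the span, or merging peaks closer than 100 bp, left 6 peaks over 3 genes. The HDGF pair, 103 bp apart, was just beyond that merging distance. No paired analysis was possible because no group has more than 1 sample. Depth is unknown, which leaves no limit of detection to state for ALYREF and ELAVL1.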
